A study of Mus musculus with 22 samples.

Results

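Forced expression of Oct4 in mouse embryos up to embryonic day (E) 9.5 is described here across all measured genes, from 6 of the 22 RNA-seq libraries of the series. The 3 induced libraries came from embryos whose mothers drank doxycycline from E6.5 to E9.5, and the 3 control libraries from embryos of mothers given none. Every library was made from a pool of 3 whole C57BL/6 embryos of genotype ROSA26tg/+; Oct4tg/+, so the controls carried both transgenic alleles too. The labels do not say which promoter drives either transgene, and no group of the 22 libraries received doxycycline without carrying a transgene for Oct4 or Nanog. The induced pools are numbered 3, 4 and 5 and the control pools 1, 2 and 3, as in the labels. Set beside them are a Nanog line at E9.5 (3 induced and 2 control pools, ROSA26tg/+; Nanogtg/+, also C57BL/6 and also given doxycycline or none from E6.5) and the same Oct4 line at E7.5 (3 induced and 3 control pools). For E7.5 the induced groups had doxycycline from E4.5, and every pool held 8 to 12 embryos. Nanog-line pools of E7.5, induced on the same schedule or left untreated, are used near the end of the results.

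Oct4, the product of Pou5f1, is a POU-domain transcription factor that binds an octamer DNA motif and is required for the pluripotent cells of the early embryo. It is switched off in somatic tissue as gastrulation ends, while the body is still being laid down from head to tail. The tail end grows from axial progenitors in the tailbud, which are held in their progenitor state by Wnt and FGF signals and by Cdx and T-box factors. Their descendants form the spinal cord and the presomitic mesoderm, from which somites are cut off one after another, and the Hox genes, switched on in order along each cluster, give each level its position. At E9.5 the normal embryo has a beating heart, a primitive circulation, a regionalised brain and the first differentiating neurons.

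Gene-level totals were 10397988, 4716147 and 8284701 expected counts in the induced pools and 8967677, 14174717 and 7722143 in the control pools. The chi-square per degree of freedom between any pair of pools of the same group ran from 1.90 to 4.94, so no 2 pools were the same library within counting error. Mitochondrially encoded genes took 2.27% to 2.34% of the counts in induced pools and 2.38% to 2.43% in control pools, without overlap. Transcripts of heart sarcomere genes summed to 1425 to 1535 CPM (counts scaled to the size of the library) in induced pools and 1283 to 1522 CPM in control pools, and none of the 22 tested members of that list differed. Whole embryos hold every tissue at once, so fewer cells of a type and less RNA per cell cannot be told apart in any value below. Since the labels do not tie the pools to litters or days, p-values measure the spread between these pools, which may be technical in part.

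The induced gene separated the groups. Pou5f1 (chr17:35642982-35647721, NCBIM37, the build of the deposited values) had 242, 241 and 264 CPM in the induced pools, against 0.841, 0.403 and 1.22 CPM in the control pools. The means were 249 ± 12.7 CPM in induced and 0.823 ± 0.411 CPM in control pools (SD, n = 3 each), a log2 fold change of 8.39 ± 0.12 (SE; edgeR's quasi-likelihood test with Benjamini-Hochberg adjustment, adjusted p = 8.02e-15). Gene-level values do not tell transgene transcripts from those of the endogenous locus. Nanog, another core pluripotency factor and the gene induced in the other line, averaged 1.08 ± 0.235 CPM in induced and 0.821 ± 0.356 CPM in control pools and was too low to be tested.

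Across the genome 1297 of 13957 genes tested were called at an adjusted p under 0.05, which is 9.29%: 654 were higher (4.69%) and 643 lower (4.61%) in induced pools, and the median log2 fold change over all genes tested was 0.00. Most of these changes were small. The median size of a called change was 0.39 on the log2 scale, 869 of the called genes differed by under 1.5-fold, and only 103 genes were called and at least 2-fold higher (0.738%) and 95 at least 2-fold lower (0.681%). In 1281 of the 1297 the 3 induced pools lay wholly above or below the 3 control pools, a separation that 28.2% of all genes tested showed. The number of calls fell to 625 when control pool 2, the deepest library, was left out, to 742 without induced pool 3 and to 733 without induced pool 5. A set of 458 genes was called in every fit that left out 1 pool.

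**Figure D1:**
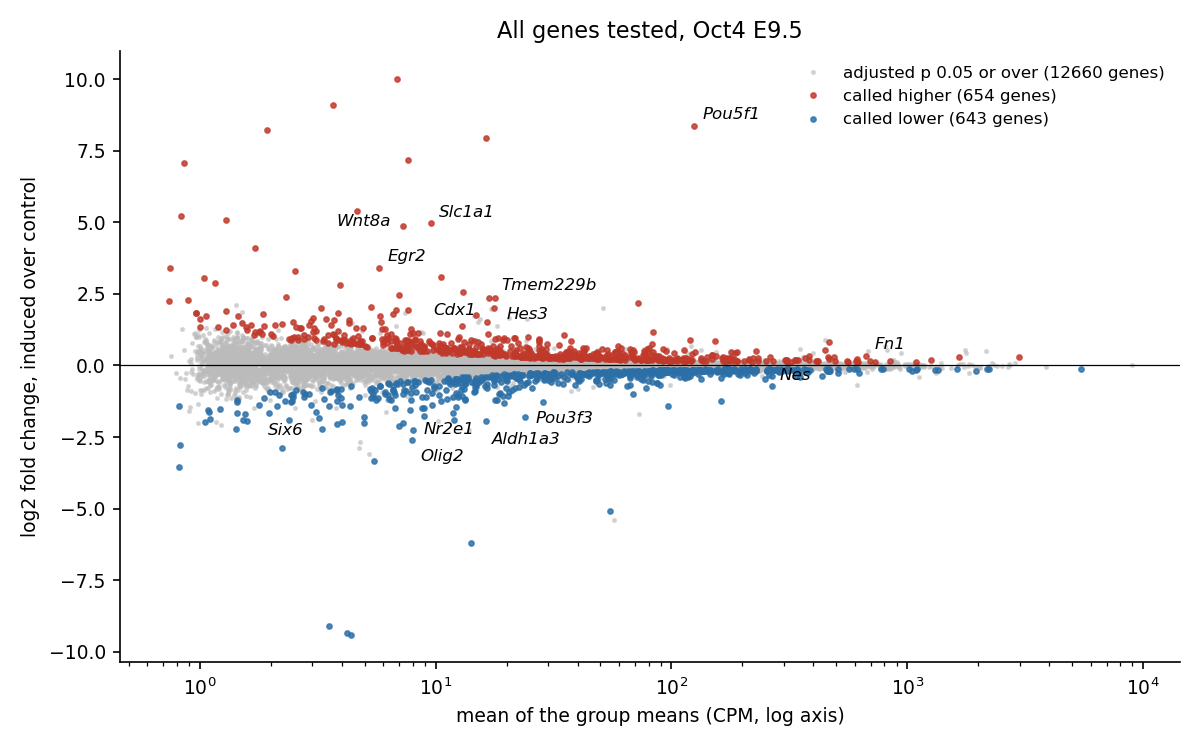
Mean expression (x axis, mean of the induced and control group means, CPM on a log axis) against log2 fold change of induced over control pools (y axis) for each of the 13957 genes tested. Coloured points are the 654 genes called higher and the 643 called lower at an edgeR adjusted p under 0.05, and Pou5f1 stands apart from other genes of its level at a log2 fold change of 8.39. The unlabelled points furthest from 0 are mostly pseudogenes and low genes.

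The most extreme fitted values belonged mostly to pseudogenes and low genes: 4 called genes were at 0 in every control pool (Gm7887, Rpl30-ps9, BC023719 and Glra2) and 3 at 0 in every induced pool (Gm7879, Gm5292 and Gm8420), and pseudogene reads may come from other copies. The largest changes were then taken among called genes with 5 CPM or more in induced or control pools and no overlap between the groups. Pseudogenes and unnamed gene models were left out. The largest rises of this set besides Pou5f1 were a mixture of tailbud regulators and genes of unrelated tissues. Wnt8a, a Wnt ligand of the gastrulating and tail-forming embryo, had 13.6, 15.3 and 13.4 CPM in induced pools, against 0.526, 0.336 and 0.612 CPM in control pools. Its log2 fold change was 4.89 ± 0.24 (edgeR adjusted p = 2.92e-10), with no pool of either group near the other. Tmem229b, a membrane protein gene, had 28.2, 26.7 and 29.2 CPM in induced pools and 6.83, 5.17 and 4.53 CPM in control pools. It rose by 2.36 ± 0.13 (edgeR adjusted p = 1.33e-09), and the soluble epoxide hydrolase gene Ephx2 rose by 3.08 ± 0.21 (4.04e-07), with 15.7 CPM as its lowest induced and 2.75 CPM as its highest control pool. The 2 steepest rises of this set after Pou5f1 belonged to less even genes. Ppp1r1b, which encodes the phosphatase inhibitor DARPP-32 of striatal neurons, had 15.2, 4.58 and 7.42 CPM in induced pools, against 0, 0.336 and 0.245 CPM in control pools. Slc1a1, a glutamate transporter gene, had 23.4, 19.3 and 12.9 CPM in induced pools, against 1.16, 0.537 and 0 CPM in control pools. Their log2 fold changes were 5.41 ± 0.82 and 4.98 ± 0.56 (edgeR adjusted p = 0.0182 and 0.00645), and both calls were lost without control pool 2 (adjusted p = 0.107 and 0.0652). Of the 15 highest and 15 lowest genes of this set, 24 kept their call whichever single pool was left out and all 30 were called by DESeq2 too. Separation of the pools was a condition of entering the set. The call by DESeq2 rests on the same counts, so neither is separate support.

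The tailbud program was higher in induced embryos. Of 22 tested genes of tailbud axial progenitors, 13 rose and none fell, and the median log2 fold change of the list was 0.55. Summed over the list, the level was 736 to 752 CPM in induced pools, above the 475 to 562 CPM of control pools. Cdx1, a caudal homeobox factor that acts on Hox genes, had 18.6, 25.5 and 23.1 CPM in induced pools, against 3.36, 4.29 and 3.18 CPM in control pools. Every induced pool was well above every control pool, and the log2 fold change was 2.58 ± 0.16 (edgeR adjusted p = 7.62e-09). Hes3, a Hes-family repressor of the tailbud and of the midbrain-hindbrain border (chr4:151660081-151665771), had 31.1, 23.7 and 30.01 CPM in induced pools and 5.46, 7.58 and 8.69 CPM in control pools, a log2 fold change of 2.001 ± 0.14 (3.92e-07). Evx1, a homeobox gene of the primitive streak and tailbud (chr6:52263492-52268372), had 8.17, 9.56 and 7.75 CPM in induced pools and 1.26, 1.88 and 3.18 CPM in control pools, and rose by 2.04 ± 0.25 (3.01e-05). An antisense transcript overlaps Evx1 and the strand setting of the counting is not given in the sources used here, so its reads may include the partner's. Nkx1-2, a marker of the caudal epiblast, had 28.5, 30.9 and 29.2 CPM in induced pools, against 2.63, 5.30 and 10.2 CPM in control pools. It rose by 2.35 ± 0.39 (edgeR adjusted p = 0.0367). The call was lost without control pool 2 (0.163), induced pool 3 (0.128), induced pool 4 (0.113) or induced pool 5 (0.138).

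The defining regulators of the tailbud, T, Cdx2 and Cdx4, showed the same separation of pools without passing the test. T (brachyury) had 34.1, 27.3 and 31.0 CPM in induced pools, against 4.73, 10.9 and 14.8 CPM in control pools, a log2 fold change of 1.64 ± 0.37 (edgeR adjusted p = 0.0776). Cdx2 had 22.2, 24.3 and 23.6 CPM in induced and 3.15, 9.06 and 10.4 CPM in control pools, and Cdx4 had 29.8, 26.9 and 25.6 CPM in induced and 2.42, 7.52 and 11.3 CPM in control pools (adjusted p = 0.0799 for each). In all 3 genes, as in Nkx1-2, the spread lay within the control pools, where pool 1 was lowest and pool 3 highest, and the induced pools were close together and above all of them. DESeq2, run as an alternative, called T, Cdx2 and Cdx4, with adjusted p of 0.0116, 0.0158 and 0.0188. The FGF ligand genes Fgf8 and Fgf17 did not pass the test. Fgf8 averaged 8.59 ± 1.06 CPM in induced and 6.51 ± 0.118 CPM in control pools (edgeR adjusted p = 0.128), and Fgf17 averaged 6.40 ± 0.680 CPM in induced and 6.96 ± 1.04 CPM in control pools (0.764). Cyp26a1, the retinoic acid degrading enzyme that shields the tailbud, rose by 0.62 ± 0.14 (0.00688, but 0.0603 without control pool 2), Wnt5a by 0.47 ± 0.09 (0.0112, but 0.0625 without control pool 2) and Wnt3a by 0.49 ± 0.15 (0.0430, but 0.213 without induced pool 3). With 1 pool left out, the number of tailbud genes called higher fell to 5 without control pool 2 and to 6 without induced pool 5, and 5 genes were called in every such fit.

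**Figure D2:**
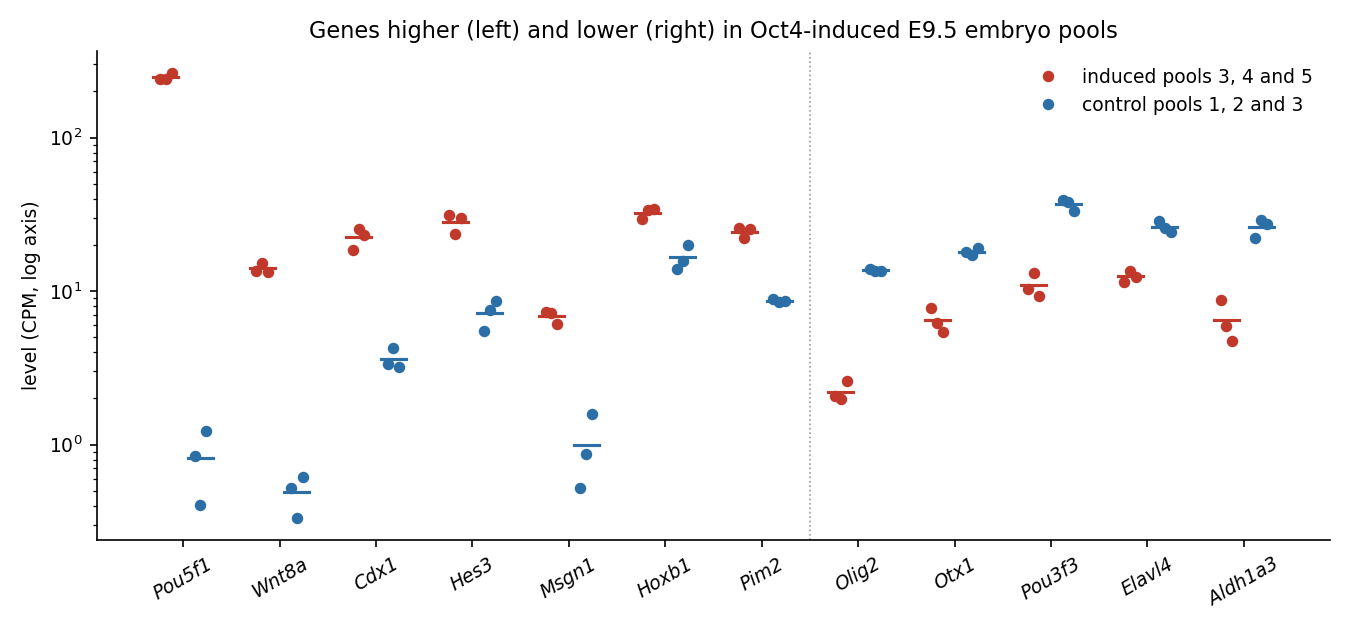
Expression of 12 genes (CPM, log axis) in each of the 3 induced and 3 control pools, drawn as dots with a line at each group mean, induced left of control. Pou5f1, Wnt8a, Cdx1, Hes3, Msgn1, Hoxb1 and Pim2 were higher in every induced pool than in any control pool, and Olig2, Otx1, Pou3f3, Elavl4 and Aldh1a3 lower in every induced pool.

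Presomitic mesoderm genes moved with the tailbud genes. Of 14 tested, 6 rose (Msgn1, Tbx6, Dact1, Dll3, Rspo3 and Hes7) and 1 fell (Nrarp, a feedback inhibitor of Notch, by 0.30 ± 0.07; edgeR adjusted p = 0.0128, but 0.127 without control pool 2). Msgn1, a bHLH factor that commits cells to paraxial mesoderm (chr12:11215188-11215754), had 7.36, 7.17 and 6.07 CPM in induced pools, against 0.525, 0.872 and 1.59 CPM in control pools. It rose by 2.83 ± 0.29 (3.54e-06). Tbx6, a T-box factor of the same cells, had 10.9, 10.9 and 10.4 CPM in induced pools and 1.68, 2.82 and 4.16 CPM in control pools and rose by 1.93 ± 0.22 (1.74e-05). Both genes separated the groups with room to spare and kept their call whichever pool was left out. The list's count of rises was less steady, at 2 without induced pool 5 and 3 without induced pool 4 or control pool 2. Of 15 somite genes 3 rose and none fell. Meox1, a homeobox factor of early somites, had 82.2, 97.0 and 96.5 CPM in induced pools and 66.3, 63.9 and 72.7 CPM in control pools, a log2 fold change of 0.45 ± 0.07 (0.000740). Sim1, a bHLH-PAS factor of the lateral somite, rose by 0.94 ± 0.18 (0.00295) and Tcf15, a bHLH factor of somite epithelium, by 0.59 ± 0.14 (0.0113, but 0.0932 without control pool 2).

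The signals that pattern the tail moved in part. Of 18 FGF pathway genes tested 6 rose and none fell. Fgf3, an FGF ligand of the tailbud and hindbrain, had 14.7, 8.96 and 12.5 CPM in induced pools, against 1.58, 3.56 and 4.65 CPM in control pools (log2 fold change 1.94 ± 0.32, edgeR adjusted p = 0.00784, but 0.0625 without control pool 2). Etv4, an ETS factor switched on by FGF signalling, averaged 25.6 ± 2.08 CPM in induced and 16.1 ± 2.997 CPM in control pools and rose by 0.67 ± 0.12 (0.00166), and the feedback inhibitors Spry2 and Dusp4 rose by 0.39 ± 0.08 and 0.51 ± 0.10 (0.00400 and 0.00892, but 0.0510 and 0.0706 without induced pool 5). Leaving out 1 pool lowered the FGF count to 1 without induced pool 5, 2 without control pool 2 and 3 without induced pool 4. Among 28 Wnt pathway genes 8 rose and 3 fell, and the 8 included secreted inhibitors as well as ligands. The Wnt antagonist Sfrp1 had 266, 251 and 278 CPM in induced pools, against 194, 187 and 188 CPM in control pools, and rose by 0.50 ± 0.04 (4.06e-07). Its relative Sfrp2 rose by 0.43 ± 0.05 (2.21e-05). The 3 that fell, Wnt7b, Wnt8b and Wnt7a, are ligands of the neural tube and forebrain, and Wnt7b averaged 8.11 ± 2.17 CPM in induced and 16.9 ± 2.54 CPM in control pools (log2 fold change -1.12 ± 0.16, 0.000256). The number of Wnt genes called higher was 4 without induced pool 5 and 5 without control pool 2.

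Retinoic acid genes went both ways. Aldh1a2, which makes retinoic acid in trunk mesoderm, had 63.3, 69.7 and 73.1 CPM in induced pools, against 48.7, 46.1 and 50.8 CPM in control pools, a log2 fold change of 0.51 ± 0.07 (edgeR adjusted p = 5.81e-05). Aldh1a3, which makes it in the eye and face, had 8.80, 5.97 and 4.72 CPM in induced pools, against 22.1, 28.9 and 27.4 CPM in control pools, and fell by 1.96 on the log2 scale (SE 0.20, 0.000228). Crabp2, a retinoic acid binding protein, averaged 229 ± 12.3 CPM in induced and 292 ± 8.88 CPM in control pools and fell by 0.35 (SE 0.04, 2.39e-05). In all, 5 of 18 genes of the pathway rose and 3 fell, and 2 rose without control pool 2 and 3 without induced pool 5. Among 16 BMP pathway genes 3 rose and 2 fell. The ones that fell were the inhibitors of differentiation Id3, with 101 ± 1.68 CPM in induced and 134 ± 3.64 CPM in control pools (log2 fold change -0.39 ± 0.04, 1.06e-05), and Id4, with 5.68 ± 0.784 CPM in induced and 12.5 ± 1.18 CPM in control pools (-1.10 ± 0.15, 7.71e-05). The ones that rose were Bmp4, Smad6 and Id2, each by less than 0.40 on the log2 scale, and none of those 3 kept its call in every fit with 1 pool left out (Bmp4 and Id2 were lost without control pool 2, at 0.0874 and 0.141, and Smad6 without induced pool 5, at 0.140).

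The Hox genes rose along all 4 clusters. All 34 Hox genes tested had a positive log2 fold change (Hoxa11, at 0.03, was just below 0 under DESeq2). Of these, 21 passed the test, none fell, and the median was 0.57 against 0.00 over all genes. In 24 of the 34 every induced pool was above every control pool, which 12.9% of all genes tested showed. By position, 7 of 11 genes of paralogue groups 1 to 4, 12 of 15 of groups 5 to 9 and 2 of 8 of groups 10 to 13 were called. Hoxb1, which marks rhombomere 4 and the tailbud, had 29.4, 33.6 and 34.4 CPM in induced pools and 13.9, 15.8 and 20.1 CPM in control pools, a log2 fold change of 0.99 ± 0.11 (edgeR adjusted p = 4.80e-05). The central genes were close behind.

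Hoxa7 averaged 25.9 ± 1.27 CPM in induced and 14.4 ± 2.44 CPM in control pools (log2 fold change 0.88 ± 0.11, edgeR adjusted p = 5.70e-05), Hoxd9 18.8 ± 2.27 CPM in induced and 10.3 ± 1.03 CPM in control pools (0.87 ± 0.12, 0.000147), and Hoxb9 110 ± 13.4 CPM in induced and 74.6 ± 5.39 CPM in control pools (0.57 ± 0.10, 0.0151, but 0.0753 without control pool 3). Hoxa7 lies beside antisense transcripts, with which it may share reads. The posterior genes of groups 10 to 13 were less even. Hoxa10 had 16.3, 19.3 and 13.04 CPM in induced pools and 5.99, 6.71 and 18.4 CPM in control pools, and Hoxa11 had 6.37, 7.57 and 6.07 CPM in induced pools and 3.68, 3.89 and 12.98 CPM in control pools. Control pool 3 held as much of both as the induced pools or more, and neither gene passed the test (edgeR adjusted p = 0.524 for Hoxa10). Hoxa13 and Hoxd13, the last genes of their clusters, rose by 1.82 ± 0.41 and 1.11 ± 0.29 (0.00994 and 0.0488, but 0.112 without induced pool 3 for Hoxa13 and 0.169 without induced pool 5 for Hoxd13). Leaving out control pool 2 removed both, and leaving out control pool 3 raised the count for groups 10 to 13 to 5. Of the 21 calls 12 held in every fit with 1 pool left out and 20 were shared with DESeq2. In 1 model over all 22 libraries, where the spread is shared with the other line and stage, no gene of groups 1 to 4 and 4 of groups 5 to 9 were called.

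Oct4 binds the octamer ATGCAAAT, so the promoters of the called genes were searched for it on both strands (its reverse complement is ATTTGCAT), in windows from 250 bases before to 50 bases after each RefSeq start (GRCm38.p6). It was present in 1.74% of all 32851 windows and in 1.65% of the 9534 tested genes with a window. Of the 429 genes called higher with a window 14 held it (3.26%), and of the 447 called lower 9 held it (2.01%). Among 56 genes at least 2-fold higher the 3 holders (5.36%) were Egr2, Evx1 and Pim2, and among 62 at least 2-fold lower the 4 (6.45%) were Aldh1a7, Gm16551, Hpgds and Slc7a11, so holders were found on both sides. The bases before the start of Evx1, Pim2, Egr2 and Slc7a11, the holders whose values these results give, are printed with the octamer in capitals. Evx1 is at chr6:52313248-52313497, Pim2 at chrX:7878056-7878305, Egr2 at chr10:67537619-67537868, all on the plus strand, and Slc7a11 is at chr3:50443614-50443863 on the minus strand.
Evx1: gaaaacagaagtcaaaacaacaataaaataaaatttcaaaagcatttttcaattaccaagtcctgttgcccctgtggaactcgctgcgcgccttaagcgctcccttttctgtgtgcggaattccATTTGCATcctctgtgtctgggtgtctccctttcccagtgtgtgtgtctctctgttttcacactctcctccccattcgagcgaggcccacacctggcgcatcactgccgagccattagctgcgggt
Pim2: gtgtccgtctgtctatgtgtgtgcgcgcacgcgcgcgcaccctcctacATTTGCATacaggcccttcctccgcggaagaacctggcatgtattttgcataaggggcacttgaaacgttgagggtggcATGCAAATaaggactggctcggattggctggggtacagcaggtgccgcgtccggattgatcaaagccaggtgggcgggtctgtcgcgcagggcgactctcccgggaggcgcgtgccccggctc
Egr2: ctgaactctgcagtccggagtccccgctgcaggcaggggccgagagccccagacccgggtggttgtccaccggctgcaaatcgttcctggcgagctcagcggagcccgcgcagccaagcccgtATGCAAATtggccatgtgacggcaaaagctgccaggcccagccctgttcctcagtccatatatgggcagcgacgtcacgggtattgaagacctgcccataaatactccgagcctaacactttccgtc
Slc7a11: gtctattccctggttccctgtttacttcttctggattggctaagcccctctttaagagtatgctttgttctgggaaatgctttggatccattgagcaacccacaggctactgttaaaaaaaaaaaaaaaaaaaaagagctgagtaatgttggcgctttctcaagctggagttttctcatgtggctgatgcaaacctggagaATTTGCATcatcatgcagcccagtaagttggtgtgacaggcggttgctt
The octamer of Evx1 begins 126 bases before the start, that of Egr2 127 bases and that of Slc7a11 49 bases, and Pim2 has it at 202 and at 123 bases. For Egr2 3 of the 5 annotated windows hold it. A match is a run of letters and not evidence of binding.

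A small part of the pluripotency network was higher with Pou5f1. Of 28 other core and naive pluripotency genes 14 were high enough to test, and 3 of these rose (L1td1, Zscan10 and Sall4) and 1 fell (Lin28b). L1td1, an RNA-binding protein gene of embryonic stem cells, had 5.57, 4.78 and 6.41 CPM in induced pools, against 1.68, 2.08 and 1.84 CPM in control pools, a log2 fold change of 1.59 ± 0.23 (edgeR adjusted p = 0.000156). Zscan10, a zinc finger factor of the same cells, averaged 7.06 ± 0.677 CPM in induced and 3.64 ± 0.673 CPM in control pools (0.96 ± 0.20, 0.00421). Sall4, a zinc finger factor of pluripotent cells that is also active in the tailbud and limbs, averaged 111 ± 9.38 CPM in induced and 78.6 ± 9.85 CPM in control pools (0.51 ± 0.10, 0.0254, but 0.102 without induced pool 3). Lin28b, which blocks maturation of let-7 miRNAs, had 172, 172 and 169 CPM in induced pools, against 215, 216 and 207 CPM in control pools, and fell by 0.31 (SE 0.04, 3.15e-05). Sox2, the partner of Oct4 in pluripotent cells and also a neural progenitor factor, averaged 91.2 ± 4.46 CPM in induced and 101 ± 2.95 CPM in control pools (adjusted p = 0.0968). Among the genes too low to test, Zfp42 averaged 0.594 CPM in induced and 0.104 CPM in control pools, Utf1 0.289 CPM in induced and 0.190 CPM in control pools, and Tdgf1 1.01 ± 0.294 CPM in induced and 0.780 ± 0.312 CPM in control pools.

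Of 14 tested genes of the primed epiblast, the pluripotent tissue that gastrulates, 6 rose and 1 fell, where 4.69% of all genes tested rose and 4.61% fell. Pim2, a serine/threonine kinase gene (chrX:7455388-7460558, NCBIM37), had 25.7, 22.1 and 25.5 CPM in induced pools, against 8.83, 8.52 and 8.69 CPM in control pools. The groups were far apart, and the log2 fold change was 1.52 ± 0.11 (edgeR adjusted p = 5.64e-08). The inhibitors of Nodal signalling Lefty1 and Lefty2 were near the detection limit in control pools. They entered the test through the induced pools alone and could only be called higher, so their part in the count of rises is no support. Lefty1 had 2.60, 2.19 and 2.70 CPM in induced pools, against 0.105, 0 and 0.122 CPM in control pools (adjusted p = 7.91e-06), and Lefty2 1.71, 1.59 and 1.57 CPM in induced pools, against 0.105, 0 and 0 CPM in control pools (5.70e-05). Epcam and Dnmt3b rose by 0.27 ± 0.07 and 0.21 ± 0.05 (0.0203 and 0.0215), and Zic5 fell by 0.34 (SE 0.10, 0.0389), calls that were each lost with 1 pool left out (0.121 without induced pool 5, 0.127 without control pool 2 and 0.225 without induced pool 5, in that order). Foxh1, the transcription factor through which Nodal signals act, was chosen after its values were seen and belongs to none of these lists. It averaged 9.04 ± 2.40 CPM in induced and 2.63 ± 0.185 CPM in control pools (log2 fold change 1.73 ± 0.21, 2.88e-05). Of 7 tested genes of primordial germ cells, in which Oct4 normally stays on, only Alpl passed the test (0.46 ± 0.11, 0.0143, but 0.141 without induced pool 5), and none of the 3 tested germline genes silenced by DNA methylation did.

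At the head end the direction was reversed. Of 18 tested forebrain and eye genes 11 fell and 1 rose, the median log2 fold change was -0.67, and the summed level was 125 to 150 CPM in induced pools, below the 204 to 213 CPM of control pools. Otx1, a homeobox factor of the fore- and midbrain, had 7.81, 6.17 and 5.39 CPM in induced pools, against 18, 17.1 and 19.1 CPM in control pools. The groups were well apart, and it fell by 1.44 (SE 0.14, edgeR adjusted p = 2.23e-06). Six6, a factor of the eye field and pituitary, averaged 1.14 ± 0.328 CPM in induced and 5.47 ± 0.457 CPM in control pools (log2 fold change -2.23 ± 0.26, 1.94e-05), and Nkx2-1, of the ventral forebrain, 1.86 ± 0.905 CPM in induced and 8.04 ± 0.705 CPM in control pools (-2.01 ± 0.25, 4.14e-05). Nr2e1, an orphan nuclear receptor of forebrain progenitors, had 3.59, 2.59 and 1.91 CPM in induced pools, against 12.7, 12.9 and 14.6 CPM in control pools (-2.25 ± 0.19, 4.82e-07). The member that rose was Hesx1, a repressor of the earliest anterior neural plate, with 1.44, 1.59 and 1.91 CPM in induced pools and 0.315, 0.537 and 0.612 CPM in control pools (1.73 ± 0.40, 0.00927, but 0.0714 without induced pool 5). Without control pool 2 the number of forebrain genes called lower was 7, and 6 held in every fit with 1 pool left out.

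Genes of the midbrain and hindbrain went both ways, 5 of 17 higher and 4 lower. The ones that fell mark the midbrain and its border. Dmbx1, a homeobox factor of the midbrain, had 3.59, 1.79 and 2.02 CPM in induced pools, against 11.9, 11.1 and 11.6 CPM in control pools, and fell by 2.12 (SE 0.20, edgeR adjusted p = 1.87e-06). En2, an engrailed factor of the midbrain and rostral hindbrain, averaged 8.16 ± 0.646 CPM in induced and 18.6 ± 4.09 CPM in control pools (-1.19 ± 0.16, 0.000109), Cnpy1, a positive regulator of FGF signalling at the border in zebrafish, also fell by 1.19 (SE 0.12, 4.61e-06), and Pax5 fell by 1.39 (SE 0.28, 0.00385, but 0.0537 without control pool 2). The ones that rose, besides Hes3, are active in the hindbrain, the caudal neural plate or both. Egr2 (Krox20), the factor of rhombomeres 3 and 5, had 15.8, 8.56 and 7.31 CPM in induced pools, against 1.05, 1.14 and 0.735 CPM in control pools. The induced pools differed among themselves but all lay far above the control pools, and the log2 fold change was 3.42 ± 0.36 (0.000197). Gbx2, a homeobox factor of the hindbrain side of the border, averaged 25.0 ± 0.480 CPM in induced and 13.5 ± 1.59 CPM in control pools (0.88 ± 0.10, 1.37e-05), Irx3 73.2 ± 5.63 CPM in induced and 46.0 ± 2.26 CPM in control pools (0.67 ± 0.07, 3.16e-06), and Irx2 rose by 0.58 ± 0.11 (0.00320). All 5 rises held whichever single pool was left out.

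Genes of neural patterning and differentiation were lower along the neural tube too. Olig2, the bHLH factor of motor neuron progenitors (chr16:91225795-91228922), had 2.06, 1.99 and 2.58 CPM in induced pools, against 13.98, 13.6 and 13.6 CPM in control pools. With means of 2.21 ± 0.324 CPM in induced and 13.7 ± 0.234 CPM in control pools (SD, n = 3 each) it fell by 2.60 (SE 0.17, edgeR adjusted p = 1.91e-08). Of 12 tested genes of the hedgehog pathway and floor plate, the ventral source and reader of this signal, 6 fell and none rose. The ligand Shh had 11.7, 11.6 and 13.3 CPM in induced pools and 21.4, 21.7 and 17.4 CPM in control pools and fell by 0.73 (SE 0.12, 0.000399). Foxa2, which specifies the floor plate, fell by 0.85 (SE 0.18, 0.00547, but 0.0767 without control pool 2). The target gene Gli1, named after its values were seen, averaged 42.9 ± 4.23 CPM in induced and 55.1 ± 2.08 CPM in control pools and fell by 0.34 (SE 0.07, 0.00557, but 0.0518 without induced pool 3), while the receptor and target Ptch1, likewise chosen, averaged 175 ± 5.49 CPM in induced and 188 ± 5.46 CPM in control pools and did not pass (0.214). Without induced pool 3 the number of hedgehog genes called lower was 3.

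Of 13 tested genes of spinal cord and neural progenitors 8 fell and 1 rose, and the list median was -0.51. The Notch effector Hes5 had 14.3, 12.2 and 15.1 CPM in induced pools, against 27.2, 28.2 and 25.8 CPM in control pools (-0.94 ± 0.10, edgeR adjusted p = 3.68e-06). The intermediate filament gene Nes averaged 200 ± 9.82 CPM in induced and 332 ± 32.2 CPM in control pools (-0.72 ± 0.07, 0.000257), and the proneural gene Neurog2 had 7.36, 7.17 and 5.96 CPM in induced and 14.8, 14.7 and 16.8 CPM in control pools (-1.16 ± 0.14, 1.74e-05). The broad progenitor factor Pax6, named after its values were seen, was nearer level at 51.1 ± 1.30 CPM in induced and 58.5 ± 0.849 CPM in control pools (-0.19 ± 0.06, 0.0545). The member that rose was Irx5, with 29.4 ± 3.07 CPM in induced and 18.99 ± 1.88 CPM in control pools (0.64 ± 0.09, 0.000185). The count of 8 was 5 without control pool 2.

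Of 27 tested genes of differentiating neurons 16 were lower and 2 higher, the list median was -0.74, and their summed level was 298 to 329 CPM in induced pools and 426 to 552 CPM in control pools. In 18 of them every induced pool was below every control pool, which 15.4% of all genes tested showed. Elavl4, a neuronal RNA-binding protein gene, had 11.5, 13.5 and 12.4 CPM in induced pools, against 28.5, 25.6 and 24.2 CPM in control pools, and fell by 1.08 (SE 0.10, edgeR adjusted p = 1.86e-06). Its relative Elavl3 (log2 fold change -1.21 ± 0.12, 4.25e-06), the bHLH factor Nhlh2 (-2.02 ± 0.21, 5.59e-06) and the neurofilament gene Nefl (-0.97 ± 0.11, 8.88e-06) fell too. The 2 that rose were Lhx1, which is also a factor of early mesoderm and kidney (0.89 ± 0.23, 0.0195, but 0.144 without induced pool 5), and Gap43 (0.25 ± 0.08, 0.0489, but 0.155 without induced pool 4). Of the 16 that fell 11 did so whichever pool was left out.

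The other POU factors, relatives of the induced gene, were lower as a group, 5 of 6 tested. Pou3f3 (Brn1), a factor of neural progenitors and kidney, had 10.3, 13.1 and 9.33 CPM in induced pools, against 39.0, 38.1 and 33.3 CPM in control pools, and fell by 1.79 (SE 0.11, edgeR adjusted p = 4.55e-09). Pou3f2 (Brn2) averaged 5.32 ± 1.85 CPM in induced and 18.7 ± 2.75 CPM in control pools (-1.92 ± 0.19, 1.15e-05), and Pou3f4 (Brn4) 1.53 ± 0.235 CPM in induced and 6.14 ± 1.03 CPM in control pools (-2.04 ± 0.24, 1.99e-05). Pou4f1, of sensory neurons, fell by 0.90 (SE 0.23, 0.0196, but 0.139 without induced pool 3), and the widely expressed Pou2f1 fell by 0.21 (SE 0.04, 0.00525, but 0.0535 without induced pool 3). The sixth, Pou3f1 (named after its values were seen), had 7.99, 6.97 and 5.73 CPM in induced pools and 6.20, 7.99 and 0 CPM in control pools and could not be called.

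**Figure D3:**
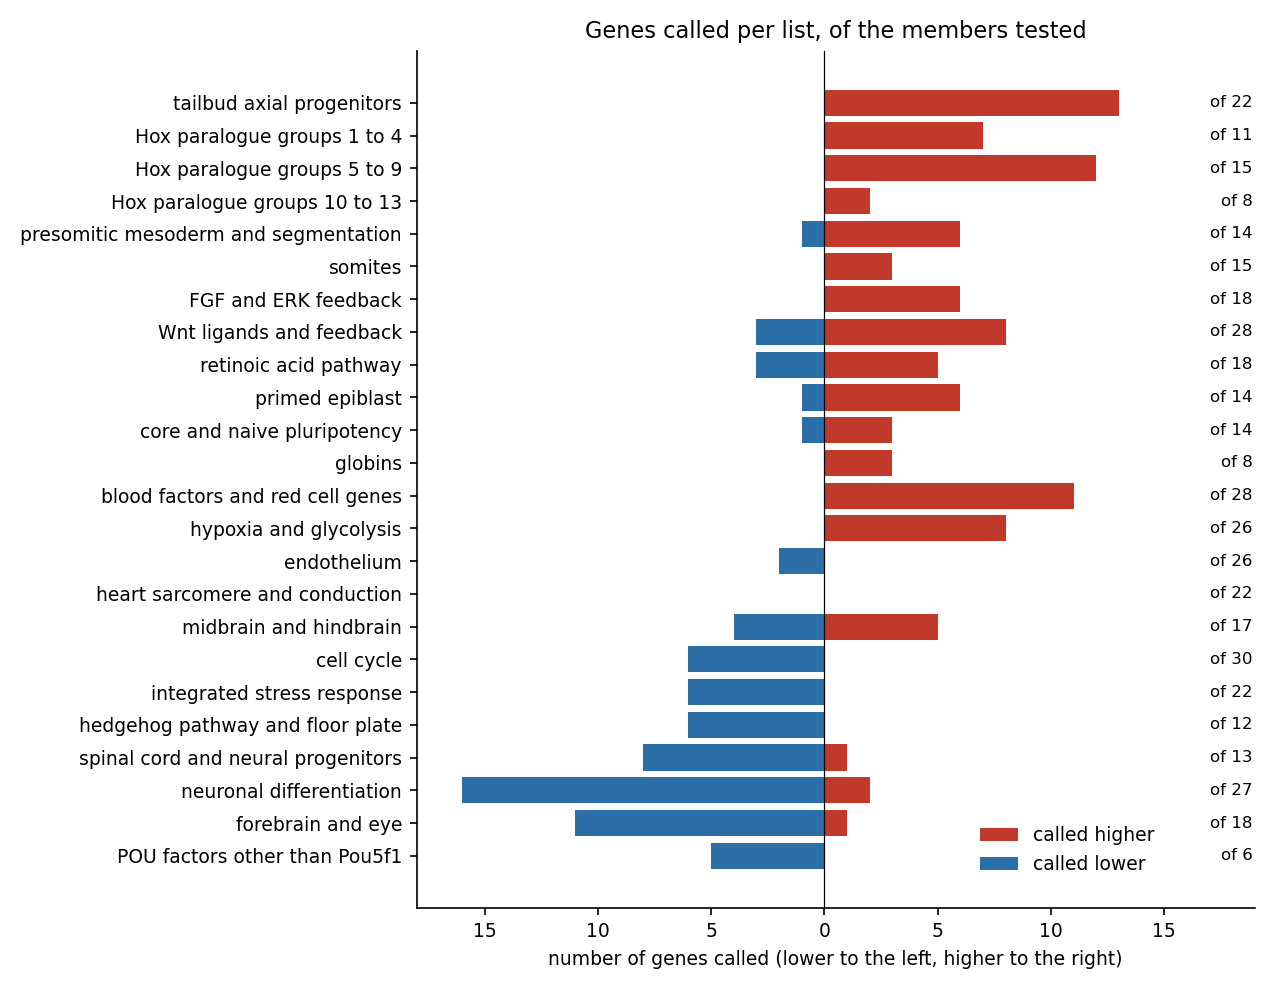
Number of members called higher and lower at an edgeR adjusted p under 0.05 in 24 gene lists, with the number tested beside each list name. Tailbud, Hox, FGF, red cell and hypoxia lists hold rises and no falls, and hedgehog, POU, cell cycle and stress response lists hold falls and no rises.

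Red cell genes were higher. All 8 tested globin genes were higher in every induced pool than in any control pool, which 12.9% of all genes tested showed, but only 3 of the 8 passed the test. The globin sum was 7303 to 9014 CPM in induced pools and 4991 to 6562 CPM in control pools. Hba-a2, an alpha globin gene, had 603, 630 and 540 CPM in induced pools, against 304, 374 and 337 CPM in control pools (log2 fold change 0.81 ± 0.10, edgeR adjusted p = 0.00858, but 0.0554 without control pool 3). The adult beta globin gene Hbb-b1 had 114, 132 and 108 CPM in induced pools, against 15.1, 30.9 and 31.7 CPM in control pools (2.17 ± 0.29, 0.0235, but 0.0927 without induced pool 3). No globin was called without induced pool 3, 1 was called when any other pool but control pool 1 was left out, and DESeq2 called 7. Near-identical globin copies share reads, so the split between them is uncertain, and adult globins can also come from maternal blood. The list of maternal decidua and adult blood, which includes Hbb-b1, summed to 158 to 186 CPM in induced pools and 62.3 to 159 CPM in control pools. Hbb-b1 itself made up most of that sum in every induced pool, so the sum is no separate reading of maternal blood. Hbb-b1 was also the only call among the 4 tested members of the list. The neutrophil granule gene Ngp of the list was at 0 in all 6 pools. The part of maternal blood in these values was not tested. Of 28 blood factors and red cell genes 11 rose and none fell, and the list median was 0.39. Zfpm1 (FOG1), the partner of GATA1, had 42.5, 45.0 and 48.1 CPM in induced pools and 25.5, 32.0 and 30.4 CPM in control pools (0.62 ± 0.08, 7.62e-05). Alas2, the first enzyme of haem synthesis in red cells, had 82.1, 81.8 and 75.8 CPM in induced pools and 45.5, 58.1 and 55.7 CPM in control pools (0.59 ± 0.08, 0.000227). The number of red cell genes called higher was 4 without induced pool 4 and 5 without induced pool 3, and 4 held in every fit with 1 pool left out.

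In heart, vessels and neural crest few genes passed the test. Besides the sarcomere genes, 2 of 13 heart transcription factors rose, Gata6 with 29.9 ± 3.29 CPM in induced and 19.96 ± 1.70 CPM in control pools (log2 fold change 0.56 ± 0.09, edgeR adjusted p = 0.000625) and Hand1, also a factor of trophoblast and lateral mesoderm, with 35.7 ± 2.71 CPM in induced and 19.3 ± 4.27 CPM in control pools (0.88 ± 0.14, 0.00444). Of 26 endothelial genes none rose and 2 fell, Fli1 (log2 fold change -0.49 ± 0.11, 0.00594, but 0.0549 without induced pool 3) and Gpr116 (-0.37 ± 0.10, 0.0280, but 0.121 without induced pool 3). Of 20 neural crest genes 2 rose and 1 fell: Sox10, which defines the migrating crest, rose by 0.52 ± 0.10 (0.00264), Hand2 by 0.38 ± 0.09 (0.0137, but 0.121 without control pool 2), and Alx4, of facial mesenchyme, fell by 0.50 (SE 0.08, 0.000228). Genes of tissue outside the embryo proper were counted for the makeup of the pools. The trophoblast and placenta list summed to 231 to 256 CPM in induced and 138 to 200 CPM in control pools, without overlap. Hand1 was its only call among 7 tested, but 6 of the 7 had a positive log2 fold change (list median 0.58). DESeq2 called 3 members higher, and edgeR called 4 without control pool 3. Of its 20 matched members 4 (Tpbpa, Prl8a9, Psg21 and Ctsq) were at 0 in all 6 pools. The visceral endoderm and yolk sac list summed to 190 to 205 CPM in induced and 171 to 186 CPM in control pools, and 3 of its 14 tested genes rose (Apoa1, Rbp4 and Ctsh), none of which held without induced pool 4, induced pool 5 or control pool 2. The part of such tissue in the other results was not tested.

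Of 26 genes of hypoxia and glycolysis 8 rose and none fell. Ddit4, a stress-induced brake on mTOR, averaged 41.3 ± 4.08 CPM in induced and 25.5 ± 0.559 CPM in control pools (log2 fold change 0.72 ± 0.08, edgeR adjusted p = 6.78e-06), and the glucose transporter gene Slc2a1 426 ± 13.6 CPM in induced and 338 ± 23.3 CPM in control pools (0.34 ± 0.05, 0.000179). The hypoxia target Vegfa, named after its values were seen, averaged 62.2 ± 6.93 CPM in induced and 63.8 ± 3.35 CPM in control pools (0.947). The hypoxia count was 5 without induced pool 3, control pool 1 or control pool 2. None of 22 genes of the integrated stress response rose and 6 fell, among them the serine synthesis enzyme genes Phgdh and Psat1 (log2 fold change -0.31 ± 0.05 and -0.28 ± 0.04, 0.000316 and 0.000133) and the cystine transporter gene Slc7a11 (-1.09 ± 0.19, 0.000913). Of 30 cell cycle genes 6 fell by up to 0.25 and none rose, and the count was 1 without induced pool 3 or control pool 2, 2 without induced pool 5 and 3 without control pool 3. Of 23 imprinted growth genes 7 rose and 3 fell, but 1 fell without control pool 2 and 2 without control pool 1, induced pool 4 or induced pool 5, and in 1 model over 22 libraries 1 rose and none fell. The growth factor gene Igf2 rose by 0.29 ± 0.04 (3.09e-05), its neighbour H19 by 0.30 ± 0.04 (0.000409) and Phlda2, an imprinted growth restrictor of the placenta, by 1.59 ± 0.22 (0.000109), whereas Mest fell by 0.18 (SE 0.03, 0.000551). Of 13 mitochondrially encoded genes 6 fell, with a list median of -0.08, but none did so without induced pool 3 or control pool 2. In the matrix, the fibronectin gene Fn1 averaged 745 ± 3.90 CPM in induced and 590 ± 7.98 CPM in control pools (0.35 ± 0.03, 1.58e-06), and the cartilage and notochord collagen gene Col2a1 207 ± 4.42 CPM in induced and 289 ± 18.6 CPM in control pools (-0.47 ± 0.04, 1.50e-06).

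How far these responses were shared with another pluripotency factor was asked by testing the difference between the Oct4 and the Nanog response at E9.5. The test used 1 model over the 11 pools of both lines, which share stage and doxycycline schedule but have controls of their own. The response differed in 1970 of 14604 genes tested (13.5%), of which 813 were higher (5.57%) and 1157 lower (7.92%) under Oct4. In the Nanog line alone 3772 of 13305 genes were called (28.4%). Tailbud genes stood apart in part, 9 of 22 with a higher and 1 with a lower response under Oct4. Of 20 tailbud genes tested under Nanog, 6 rose, where 15.4% of all genes did, and 1 fell. Hes3 rose under Nanog too, by 0.75 (edgeR adjusted p = 0.00719), and its response was higher under Oct4 (difference 1.25 ± 0.24, 0.00133). Wnt8a averaged 0.252 ± 0.219 CPM in Nanog-induced and 0.278 ± 0.131 CPM in Nanog control pools, and its response differed by 5.07 ± 0.83 (edgeR adjusted p = 0.000397). Cdx1 averaged 3.40 ± 0.980 CPM in Nanog-induced and 3.18 ± 0.483 CPM in Nanog control pools, a difference of response of 2.47 ± 0.31 (1.67e-05). For Hoxb1 the difference was 0.90 ± 0.17 (0.00149), but of all 34 Hox genes only 4 had a higher response under Oct4, and 12 also rose under Nanog. Olig2 averaged 8.99 ± 0.447 CPM in Nanog-induced and 11.4 ± 1.34 CPM in Nanog control pools (log2 fold change -0.34, 0.126), and its response was lower under Oct4 (difference -2.26 ± 0.23, 2.08e-06). Pou3f2 and En2 were not called under Nanog, and their responses were lower under Oct4 (differences -2.09 ± 0.29 and -1.35 ± 0.22, 0.000338 and 0.000567). Among the lists, 7 of 18 forebrain, 4 of 12 hedgehog and 5 of 13 spinal cord genes had a lower response under Oct4. So did 3 of 27 neuronal genes, where 7.92% of all genes tested did. A higher response was found in 2 forebrain genes. Under Nanog itself 4 of 15 forebrain genes fell and 1 rose (list median -0.23). Of 25 neuronal genes tested under Nanog 7 fell and none rose (list median -0.26). Of 12 spinal cord genes 2 fell and 1 rose there, and of 12 hedgehog genes none fell and 1 rose.

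Most red cell genes had a higher response under Oct4 than under Nanog. Their list median was 0.39 under Oct4 and -0.86 under Nanog, where 18 of 26 fell and none rose, and the globin median was 0.68 under Oct4 and -1.22 under Nanog, where 4 of 7 fell and 2 rose. The response differed, higher under Oct4, in 21 of 28 red cell genes and 5 of 8 globins. Alas2 averaged 79.9 ± 3.58 CPM in Oct4-induced and 53.1 ± 6.69 CPM in Oct4 control pools, and 26.5 ± 2.79 CPM in Nanog-induced and 50.8 ± 8.47 CPM in Nanog control pools. The responses differed by 1.53 ± 0.17 (edgeR adjusted p = 0.000104). Id3 also went opposite ways, with a log2 fold change of -0.39 under Oct4 and 0.56 under Nanog (difference -0.95 ± 0.08, 1.84e-07). Other changes were of like size in the lines and their difference did not pass: Etv4 rose by 0.67 under Oct4 and 0.73 under Nanog (difference -0.05 ± 0.17, 0.896), Igf2 by 0.29 under Oct4 and 0.33 under Nanog (-0.04 ± 0.06, 0.714), and H19 by 0.30 under each (0.00 ± 0.06, 0.978). Without induced Oct4 pool 3 the count of genes with a different response was 1265.

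**Figure D4:**
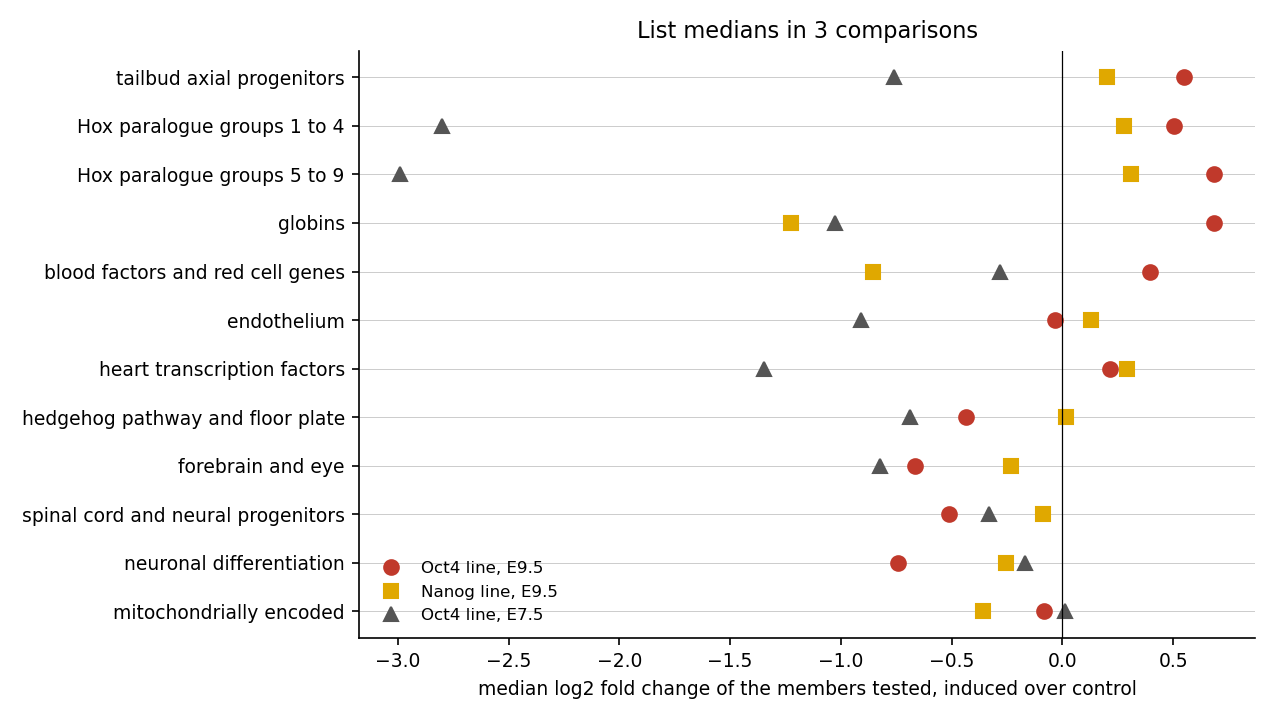
Median log2 fold change of induced over control pools in 12 gene lists for Oct4 at E9.5, Nanog at E9.5 and Oct4 at E7.5. Hox medians are 0.50 and 0.68 for Oct4 at E9.5 and -2.80 and -2.99 for Oct4 at E7.5, and red cell and globin medians are above 0 only for Oct4 at E9.5.

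At E7.5 most Hox genes fell in the same line, while tailbud and presomitic genes went both ways. The E7.5 pools held 8 to 12 embryos, and doxycycline was first injected at E4.5 and then given in the water, so stage and schedule cannot be told apart. At E7.5 Pou5f1 was still high in controls, with 604 CPM in induced and 233 CPM in control pools, a log2 fold change of 1.38 (edgeR adjusted p = 0.000370). At E7.5 as a whole 991 of 16071 genes were called (6.17%), 362 higher (2.25%) and 629 lower (3.91%). Of 30 Hox genes tested there 23 fell and none of the 3 paralogue lists held a rise, and the difference between the stages was called, higher at E9.5, in 30 of 34 Hox genes. Of 21 tailbud genes tested at E7.5 3 rose and 11 fell, and the stages differed in 13 of 22, 12 higher and 1 lower at E9.5. Of 14 presomitic and segmentation genes 3 rose and 4 fell at E7.5, and the stages differed in 7, 6 higher and 1 lower at E9.5. Hoxb1 averaged 21.9 ± 6.92 CPM in induced and 67.0 ± 10.5 CPM in control pools at E7.5 (-1.61, 0.00322). Hes3 averaged 0.0604 ± 0.0392 CPM in induced and 7.49 ± 2.58 CPM in control pools at E7.5 (-6.76, 0.000226). Its difference between stages (8.70 ± 0.51, 8.86e-07) was the largest among called genes with at least 5 CPM in any group, without pseudogenes and unnamed gene models. Cdx1 averaged 9.03 ± 1.26 CPM in induced and 112 ± 40.4 CPM in control pools at E7.5 (-3.63, 0.000896), Msgn1 2.10 ± 0.726 CPM in induced and 19.5 ± 6.46 CPM in control pools (-3.23, 0.000762), and Aldh1a2 6.99 ± 0.781 CPM in induced and 126 ± 35.9 CPM in control pools (-4.16, 0.000181). Pim2 is a gene that rose at both stages, with 275 ± 56.2 CPM in induced and 101 ± 13.1 CPM in control pools at E7.5 (1.45, 0.00115). The response differed between the stages in 1094 of 16359 genes tested (6.69%), 791 higher at E9.5 (4.84%) and 303 lower (1.85%).

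The E9.5 response was set beside the difference of E7.5 from E9.5 in untreated Nanog-line controls, which are no part of the Oct4 comparison. There were 2 such pools per stage, of 8 to 12 embryos each at the earlier stage and 3 each at the later. Of 635 genes called higher under Oct4 with a value there, 179 (28.2%) were at least 2-fold higher at E7.5 than at E9.5 in those controls, against 8.84% of all 13783 genes tested, and 93 (14.65%) were at least 2-fold lower. Among the 85 called and at least 2-fold higher under Oct4, 44 (51.8%) were at least 2-fold higher at E7.5 and 17 at least 2-fold lower. Of 640 genes called lower, 8 (1.25%) were at least 2-fold higher at E7.5 and 279 (43.6%) at least 2-fold lower, against 13.6% of all genes. Among genes called and at least 2-fold lower under Oct4, 73 of 92 (79.3%) were at least 2-fold lower at E7.5. The filter on low counts can tilt these shares by itself. A gene far lower under Oct4 entered the test through its E9.5 control pools, and a gene far higher could enter through the induced pools alone. The shares over all genes do not allow for this. These shares describe levels in other embryos of the series, and whether the E9.5 embryos were delayed in development was not tested. In those control pools, gene models under 80 nucleotides summed to 31.3 and 36.8 CPM at E7.5 and 1.70 and 1.42 CPM at E9.5. In the Nanog-induced pools of E7.5 the sum was 0.575 to 1.13 CPM, so it did not go with stage alone. How far library differences other than stage enter the shares was not tested.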

How the data were processed

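RNA from pools of whole mouse embryos was sequenced, and the authors deposited expected counts per gene for each library, estimated with RSEM 1.17 against NCBIM37, per the submitters' processing notes, which also name cutadapt, Picard and limma. The aligner and strand setting are not given in the sources used here, nor which of the 2 sequencer models read which library. Expected counts were rounded, and genes passing edgeR's filterByExpr (13957 of 37680 gene IDs) were tested with edgeR 4.0.16 (quasi-likelihood F test, TMM, two-sided) in R 4.3.3 over the 6 Oct4 E9.5 pools, with Benjamini-Hochberg adjustment over all genes tested and a threshold of 0.05. A gene near 0 in 1 group could pass the filter through the other group alone, and could then be called in 1 direction only. CPM values use TMM-scaled library sizes and are not per length, so levels are not compared between genes. Errors are SD over pools or SE of the log2 fold change. Totals of 4716147 to 14174717 counts per library limit precision, most in induced pool 4. Differences of response were interaction contrasts in edgeR. Alternatives were DESeq2 1.42.0, limma-voom 3.58.1, RLE size factors, other filters, library sizes without globin and mitochondrial genes, 1 model over all 22 libraries, and leaving out each pool. Where 1 pool is named for a lost call, the call may be lost without other pools too.

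The genes and the 51 gene lists were chosen with earlier results of these data known. Named are Pou5f1 and Nanog, the 15 highest and 15 lowest called genes by log2 fold change with at least 5 CPM in the higher group and no overlap between groups, up to 4 called members per list by p (all where 5 or fewer), all pluripotency, tailbud and Hox members, and the 5 largest response differences each way. These differences were ranked among called genes with at least 5 CPM in any group, without pseudogenes and unnamed gene models. Genes named outside that rule, among them Hes7, Rspo3, Gli1, Ptch1, Pax6, Pou3f1, Foxh1, Vegfa, the octamer holders and the markers at 0, were chosen after their values were seen. Of 1003 list entries 987 matched a gene, 9 by an older symbol. Gene coordinates are from the NCBIM37 annotation, and promoter sequences are RefSeq's on GRCm38.p6. A few genes that the rule names are left out. The test was checked on simulated data before use.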

Additional observations from a re-analysis of the deposited data

Results flagged for a closer look

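The response to Oct4 differed from the response to Nanog at E9.5, by the interaction test in edgeR, in 813 genes that were higher and 1157 that were lower under Oct4. The largest were taken among called genes with at least 5 CPM in any group, without pseudogenes and unnamed gene models. Besides the induced genes themselves (Pou5f1 at 8.05 and Nanog at -6.83 on the log2 scale), the largest higher responses were those of Tpm3-rs7 at 6.86, Ppp1r1b at 6.79, Slc1a1 at 5.54 and Wnt8a at 5.07. Tpm3-rs7, a retrotransposed copy of a tropomyosin gene that may share reads with its parent, averaged 90.6 CPM in Oct4-induced and 63.0 CPM in Oct4 control pools, and 1.06 CPM in Nanog-induced and 82.0 CPM in Nanog control pools, so its difference lay in the Nanog line. The largest lower responses were those of Pax5 at -2.46, Crym at -2.37, Olig2 at -2.26 and Trh at -2.13. Trh, the gene of thyrotropin-releasing hormone, averaged 5.64 CPM in Oct4-induced and 7.27 CPM in Oct4 control pools, and 22.5 CPM in Nanog-induced and 6.82 CPM in Nanog control pools.

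Between the stages of the Oct4 line the response differed, higher at E9.5, in 791 genes and, lower at E9.5, in 303. Among the largest, chosen in the same way, were those of Hes3 at 8.70, Pou5f1 at 7.01, Hoxc5 at 6.58, Hoxc10 at 6.44 and Hbb-bh1 at 6.42 on the higher side. On the lower side these were Olig2 at -5.57, Foxd3 at -5.26, Ccno at -3.55 and Fgf5 at -3.53. Hoxc5 and Hoxc10 were at 0 in E7.5 induced pools, so these fitted values depend on the prior count. Olig2 averaged 0.244 CPM in induced and 0.0322 CPM in control pools at E7.5. Ccno averaged 0.0599 CPM in induced and 0.325 CPM in control pools at E9.5. Each was too low to test at that stage, so its difference rests in part on levels near the floor. Foxd3, a factor of the epiblast and neural crest, averaged 10.4 CPM in induced and 0.183 CPM in control pools at E7.5, against 5.70 CPM in induced and 3.95 CPM in control pools at E9.5. Fgf5, an epiblast ligand, averaged 31.1 CPM in induced and 3.73 CPM in control pools at E7.5 and was under 1 CPM in both groups at E9.5. Causes of these differences were not tested.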

How the results depend on the processing

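The 1297 calls were 715 with DESeq2 (366 higher, 349 lower) and 312 in 1 model over 22 libraries (167 higher, 145 lower). Without a filter on low counts 1006 genes were lower. RLE size factors, the stricter filter, limma-voom and library sizes without globin and mitochondrial genes gave 1303, 1287, 1146 and 1299. Leaving out 1 pool gave 625 to 1290 calls (339 to 655 higher, 286 to 635 lower). The difference from the Nanog response was called in 229 genes in 1 model over 22 libraries (102 higher, 127 lower) and in 1265 to 1750 with 1 pool left out (530 to 746 higher, 735 to 1024 lower). The difference between stages was called in 734 to 876 genes with 1 pool left out (561 to 647 higher, 170 to 229 lower). Why these counts moved was not tested. The log2 fold change of Pou5f1 stayed between 7.92 and 8.75. No named value changed sign past its test. Of 187 named calls 111 were lost in the model over 22 libraries, 40 with DESeq2, 12 with limma-voom and 22 to 67 with 1 pool left out. No paired analysis was possible because the induced and control pools share only 1 replicate number.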

Other observations

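The values of 5 genes of neuronal receptors and ion channels are given here. They were picked after their values were seen, and no list of such genes was counted. The glycine receptor subunit gene Glra2 had 1.53, 1.39 and 2.25 CPM in induced pools and 0 CPM in all 3 control pools, at least 19.1-fold higher against a floor of 3 counts over the control group (edgeR adjusted p = 4.17e-05). Another subunit gene of the same receptor, Glra1, averaged 6.55 ± 0.891 CPM in induced and 2.60 ± 0.995 CPM in control pools (log2 fold change 1.32 ± 0.24, 0.00169), and fell in the Nanog line by 1.39 (0.0102). The metabotropic glutamate receptor gene Grm3 had 5.12, 3.78 and 4.83 CPM in induced pools, against 0.420, 0.336 and 0.735 CPM in control pools (3.30 ± 0.33, 3.16e-06). The GABA receptor subunit gene Gabrg1 rose by 2.38 ± 0.31 (4.53e-05). The voltage-gated potassium channel gene Kcna2 averaged 2.02 ± 0.662 CPM in induced and 0.289 ± 0.116 CPM in control pools (2.88 ± 0.45, 0.000316). All 5 kept their call whichever single pool was left out, and their induced pools lay above all control pools.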
